A study of Mus musculus with 40 samples.

Results

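The enzymes of glycolysis and gluconeogenesis were followed in RNA-seq of mouse kidney cortex. The 36 genes were chosen by symbol, and all 36 symbols were found, on 37 of the 55401 gene rows of the count table, since Aldoa has 2 rows. Renal cortex came from 40 male C57BL/6J mice, 1 animal per library. WT littermates and heterozygous Ins2-Akita mice, which carry a mutation in 1 insulin gene and are diabetic, were treated from 6 to 22 weeks of age. The study describes oral gavage for ethanol vehicle and MitoGamide. With 5 mice per group, the 8 groups were WT and Akita mice given ethanol vehicle (10% ethanol in water), MitoGamide at 10 mg/kg in that vehicle, water vehicle, or MitoQ in water at a dose that the labels do not give. All groups share the strain and sex, and whole cortex was used, so every value is a mixture of tubular, glomerular, vascular and interstitial cells.

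Glycolysis splits glucose into pyruvate, and gluconeogenesis runs most of the same reversible steps backwards, with its own enzymes at the steps that cannot be reversed. Besides the liver, the kidney is the organ that releases newly made glucose, and it does so in the proximal tubule, which burns fatty acids and uses little glucose itself. Distal tubule and collecting duct cells are the more glycolytic part of the nephron. The triose phosphates in the middle of glycolysis are the main source of methylglyoxal, the reactive dicarbonyl that MitoGamide is designed to trap inside mitochondria, while MitoQ is a mitochondria-targeted antioxidant.

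Library depth ranged from 9106654 to 24321424 counts. The mitochondrial share of counts was 20.1 to 35.4% in the 20 libraries on ethanol vehicle or MitoGamide and 14.3 to 49.2% in the 20 on water or MitoQ. In 3 libraries it was over 40%, namely Akita water replicates 2 and 5 and WT MitoQ replicate 3. The summed level of olfactory and vomeronasal receptor genes, families of chemosensory neurons, also differed between groups (449 to 2566 CPM, that is, counts scaled by library size and TMM factors over all libraries). All 10 proximal tubule markers were detected, from Slc34a1 to Aqp1, while none of 12 skeletal muscle markers reached the minimum mean of 10 counts.

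Many of these enzymes were higher in Akita than in WT cortex, with the largest differences among called members in Pck1, Fbp2, Pklr and Aldoc, and no tested member was called lower. With all 4 treatments in 1 fit (20 WT and 20 Akita libraries, treatment as a term), 35 of the 36 members reached the minimum and were tested with edgeR's quasi-likelihood test. A gene was called when its Benjamini-Hochberg adjusted p over all tested genes was under 0.05. Of the 35 members 16 were called, all 16 higher in Akita mice, which is 45.7% of them. Over all 17769 tested genes 22.8% were called, 11.0% higher and 11.8% lower. The median log2 fold change of the members was 0.17, against −0.02 for all genes, and 27 of the 35 log2 fold changes were above 0, against 45.3% of those of all genes. In bulk tissue, fewer cells of a type and less RNA per cell cannot be told apart. Only Hk3 stayed under the minimum, together with the second Aldoa row, which averaged under 2 counts.

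**Figure D1:**
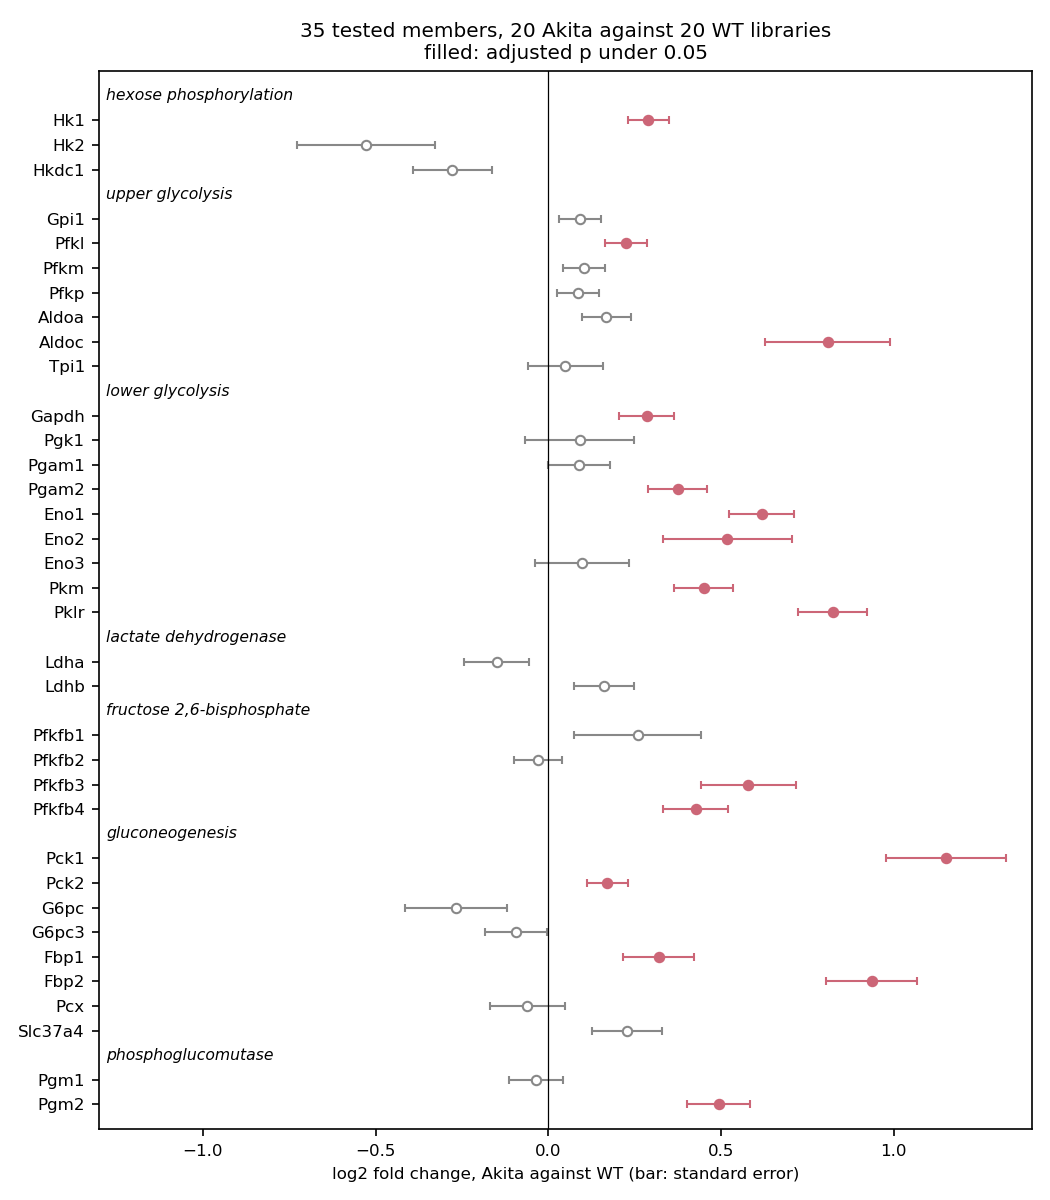
Log2 fold change of the 35 tested members, Akita against WT mice, in the fit over all 4 treatments (20 libraries per genotype). Rows are ordered by role, bars are standard errors, and filled points have an adjusted p under 0.05. The 16 filled points all lie above 0, from 0.17 for Pck2 to 1.15 for Pck1.

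Without TMM scaling, and likewise without the count minimum, the calls of Pfkl, Gapdh, Eno2, Pck2 and Fbp1 were lost and the other 11 remained. Of all genes 2618 were called without TMM scaling and 3607 without the count minimum, against 4045 with both. With the 20 libraries on ethanol vehicle or MitoGamide alone 24 members were called, 23 higher and 1 lower, among 5386 genes called. With the 20 libraries on water or MitoQ alone 3 were called, namely Pck1, Fbp2 and Pklr, all higher, among 785 genes called. Whether the genotype difference differed between these 2 sets of libraries was not tested. Without the 3 libraries of over 40% mitochondrial counts 20 members were called, 19 higher and 1 lower, among 4527 genes called. These splits were chosen after seeing the data. With the receptor gene level as a covariate, also chosen after seeing the data, 14 members were called higher and 3 lower, among 5404 genes called, against 4045 in the fit without it.

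Markers of nephron segments differed between the genotypes as well. Of 10 proximal tubule markers 5 were called lower in Akita mice and none higher, with a summed level of 10077 to 18699 CPM (median 16089.8) in WT and 9245 to 14905 CPM (median 12018) in Akita mice. Of 5 principal cell markers 4 were called higher, with sums of 107 to 200.1 CPM (median 146) in WT and 157 to 289 CPM (median 221) in Akita mice. Of 4 podocyte markers 3 were called higher, and their sums were 188 to 396 CPM (median 240.2) and 234 to 463 CPM (median 273). Of the thick ascending limb list 1 of 5 was called lower, of distal convoluted tubule 2 of 4 higher, of intercalated cells 0 of 5, of endothelium 2 of 5 higher and 1 lower, of fibroblasts 2 of 5 higher, of macrophages 2 of 5 lower, of red blood cells 0 of 5 and of liver genes 1 of 4 lower. The summed liver level reached 444 CPM in WT water replicate 1, against a median of 42.1 CPM in its group. Without that library 16 members were called higher and 1 lower. With all 40 libraries these counts were 16 and 0, where 22.8% of all genes were called. The share of all genes called without that library is not given here, so the member counts were not set against it. No lymphocyte or fat marker reached the minimum over all 40 libraries, and of 4 adrenal genes only Star did and it was not called. The part of these shifts in the enzyme values was not tested.

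Glucose enters the pathway through hexokinase, and Hk1, the form found in most tissues, supplied 93.4% (91.1 to 95.5%) of the hexokinase level per kilobase of transcript in WT and 95.5% (93.4 to 97.4%) in Akita mice (mean and range of 20 libraries each). Hk1 (chr10:62268855-62379908, minus strand, GRCm38) ranged from 44.8 to 71.1 CPM in WT mice (median 54.96) and from 54.3 to 91.3 CPM in Akita mice (median 67.3). Most of the Akita libraries lay above most of the WT libraries, and the groups overlapped. Its log2 fold change was 0.29 ± 0.06 (SE), with an adjusted p of 0.000215 in edgeR's quasi-likelihood test. The other tested hexokinases, Hk2 and Hkdc1, were not called (−0.53 ± 0.20, adjusted p = 0.0511, and −0.28 ± 0.11, adjusted p = 0.0753), and together with Hk3 they made up the small remainder of the step.

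Of the upper glycolytic enzymes, from glucose 6-phosphate isomerase to triosephosphate isomerase, 2 of 7 were called higher and all 7 had a log2 fold change above 0. Pfkl, the liver form of phosphofructokinase, ranged from 22.2 to 40.8 CPM in WT mice (median 28.8) and from 25.2 to 42.04 CPM in Akita mice (median 35.3), a log2 fold change of 0.22 ± 0.06, adjusted p = 0.0057. The 3 phosphofructokinase forms were all present, and Pfkl made up 32.04% (29.3 to 35.8%) of their level per kilobase in WT and 34.02% (28.7 to 40.9%) in Akita mice. Pfkm was the largest form at 45.97% (39.8 to 49.3%) and 44.8% (38.7 to 50.97%), and its call and that of Pfkp did not pass (0.10 ± 0.06 and 0.09 ± 0.06).

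Aldoc, the aldolase form best known from brain, was the member of upper glycolysis with the largest difference. It ranged from 1.17 to 9.32 CPM in WT mice (median 2.29) and from 2.38 to 8.39 CPM in Akita mice (median 4.82), and its log2 fold change was 0.81 ± 0.18, with an adjusted p of 0.000777 by edgeR. The highest WT value came from the same WT water replicate 1, and without that library the log2 fold change was 0.98. Aldoc is a minor transcript in cortex, at 0.359% (0.161 to 0.925%) of the summed Aldoa and Aldoc level per kilobase in WT and 0.567% (0.323 to 1.01%) in Akita mice. Aldoa itself gave 0.17 ± 0.07, adjusted p = 0.0851, and Gpi1 and Tpi1, the single forms of their steps, gave 0.09 ± 0.06 and 0.05 ± 0.11 and were not called.

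Lower glycolysis, from glyceraldehyde 3-phosphate to pyruvate, held the most calls, 6 of 9 members, and all 9 log2 fold changes were above 0. Gapdh, which oxidises the triose phosphate, ranged from 549.8 to 1297 CPM in WT mice (median 964) and from 752 to 1643 CPM in Akita mice (median 1171), with a log2 fold change of 0.28 ± 0.08, adjusted p = 0.00747 in edgeR's test. This gene is often used to scale PCR measurements. Pgam2, the muscle form of phosphoglycerate mutase, was called higher (0.37 ± 0.09, adjusted p = 0.000964), whereas Pgam1 and Pgk1 were not (0.09 ± 0.09 and 0.09 ± 0.16). Reads of Pgam1 may be shared with its copy Pgam1-ps2, whose mean count was 8.94% of that of Pgam1.

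Eno1, the enolase of most tissues, is nearly the sole enolase here, at 99.1% (97.01 to 99.7%) of the level per kilobase in WT and 99.4% (98.1 to 99.8%) in Akita mice. On ethanol vehicle its level was 480.4, 517, 529, 563 and 578 CPM in the 5 WT mice and 693, 703, 744, 755 and 781 CPM in the 5 Akita mice. On MitoGamide it was 411, 433, 476, 491 and 507 CPM in WT and 689, 832, 869, 900.0 and 994 CPM in Akita mice. On both treatments every Akita value lay above every WT value. On water the values were 251, 380.3, 431, 538 and 609 CPM in WT and 397, 472, 533, 751 and 834 CPM in Akita mice, and on MitoQ 262, 351, 386, 399 and 445 CPM and 440.0, 460.3, 584, 730.1 and 749 CPM, so that the genotypes overlapped in both. The log2 fold change over all treatments was 0.62 ± 0.10, adjusted p = 3.37e-06. Eno2, the neuronal form, was called as well (0.52 ± 0.19, adjusted p = 0.04) at a median of only 0.546 CPM in WT and 0.820 CPM in Akita mice, and remained called in 26 of 40 leave-one-out fits. Eno3, the muscle form, gave 0.10 ± 0.14 and was not called.

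Both pyruvate kinase genes were higher in Akita mice. Pkm ranged from 75.3 to 186 CPM in WT mice (median 112) and from 110.0 to 252 CPM in Akita mice (median 169), a log2 fold change of 0.45 ± 0.08, adjusted p = 8.59e-05 by edgeR. Pklr, the liver and red cell gene and a standard target of carbohydrate response signalling, had the smallest adjusted p of all members (0.82 ± 0.10, adjusted p = 3.03e-08). On ethanol vehicle Pklr was at 19.2, 21.3, 26.99, 27.4 and 28.6 CPM in WT and 36.1, 37.6, 46.1, 48.2 and 49.2 CPM in Akita mice, and on MitoGamide at 19.7, 21.2, 21.5, 21.9 and 23.4 CPM and 33.2, 37.6, 43.2, 45.6 and 53.05 CPM. Neither pair of groups overlapped. On water Pklr was at 11.2, 17.2, 18.002, 22.5 and 23.7 CPM in WT and 19.1, 24.6, 27.1, 37.2 and 41.9 CPM in Akita mice, and on MitoQ at 13.2, 16.5, 17.4, 19.9 and 22.2 CPM and 18.3, 23.3, 29.2, 38.2 and 44.7 CPM, with overlap in each. None of 5 red blood cell markers was called. Per kilobase of transcript Pklr made up 12.8% (8.81 to 18.1%) of pyruvate kinase in WT and 15.5% (10.9 to 20.6%) in Akita mice, given as a description without a test.

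Lactate dehydrogenase, which interconverts pyruvate and lactate, showed no called member over all treatments. Ldhb, the heart form and the main one here, gave 0.16 ± 0.09, adjusted p = 0.199, and Ldha, the muscle form, gave −0.15 ± 0.09, adjusted p = 0.279 in edgeR's test. The Ldhb share of the level per kilobase was 74.3% (71.8 to 77.4%) in WT and 78.1% (74.3 to 79.9%) in Akita mice, ranges that overlap in part.

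Fructose 2,6-bisphosphate activates phosphofructokinase and inhibits fructose 1,6-bisphosphatase, and its level is set by the 4 bifunctional Pfkfb enzymes. Of these 2 were called higher. Pfkfb3, the form with the most kinase activity relative to phosphatase, was at 8.78, 9.44, 10.1, 11.9 and 12.3 CPM in WT and 13.4, 13.5, 13.98, 15.1 and 15.5 CPM in Akita mice on ethanol vehicle, without overlap. On MitoGamide it was at 9.50, 9.98, 11.03, 11.2 and 13.6 CPM in WT and 13.7, 14.3, 20.3, 20.6 and 66.5 CPM in Akita mice, also without overlap, and Akita MitoGamide replicate 5 stood far above the other 4. Over all treatments the log2 fold change of Pfkfb3 was 0.58 ± 0.14, adjusted p = 0.0015, and without that library it was 0.43 and still called. On MitoGamide alone it was 1.30 ± 0.38, adjusted p = 0.04 by edgeR, and 0.67 and still called without that library. This call on MitoGamide was lost without Akita MitoGamide replicate 2 and without any 1 of the 5 WT libraries. Pfkfb4 was called at 0.43 ± 0.09, adjusted p = 0.000636. Pfkfb2, the largest form per kilobase at 47.8% (38.8 to 54.2%) in WT and 39.9% (17.9 to 49.3%) in Akita mice, gave −0.03 ± 0.07, and Pfkfb1, the liver form, 0.26 ± 0.18.

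The gluconeogenic group held the largest fold change. Pck1 (chr2:173153048-173159273, plus strand, GRCm38), the cytosolic phosphoenolpyruvate carboxykinase that commits carbon to glucose synthesis, was at 981, 1017, 1100.4, 1791 and 2672 CPM in WT and 2029.7, 2339, 2677, 3452 and 3938 CPM in Akita mice on ethanol vehicle. On MitoGamide it was at 1266, 1330.5, 1603, 1728 and 1804 CPM in WT and 2423, 3042, 3589, 3914 and 8469 CPM in Akita mice. The groups overlapped on ethanol vehicle through 1 high WT library, replicate 3, and did not overlap on MitoGamide, where Akita MitoGamide replicate 5 was again the highest. On water Pck1 was at 738, 862, 1301, 1328 and 1649 CPM in WT and 1447, 1788, 1805, 2759.6 and 3299 CPM in Akita mice, and on MitoQ at 545, 988, 1117, 1221 and 1282 CPM and 1088, 1371, 2306, 2818 and 4941 CPM, overlapping in each case. The log2 fold change over all treatments was 1.15 ± 0.17, adjusted p = 2.22e-06 by edgeR, and it stayed between 1.05 and 1.24 when any 1 library was left out. Pck1 made up 99.5% (98.9 to 99.8%) of both carboxykinases per kilobase in WT mice and 99.7% (99.5 to 99.9%) in Akita mice. Pck2, the mitochondrial form, was called at 0.17 ± 0.06, adjusted p = 0.0345 and was not higher in the libraries on water or MitoQ alone, where its log2 fold change was −0.0068.

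Both fructose bisphosphatases were higher in Akita mice. Fbp1, the main form, ranged from 228 to 665 CPM in WT mice (median 505) and from 317 to 797 CPM in Akita mice (median 637), with a log2 fold change of 0.32 ± 0.10, adjusted p = 0.0193. Its call was lost with the receptor gene covariate as well as without TMM scaling, whereas Fbp2 was called in all 12 of the other settings run. Fbp2, known as the muscle form, was at 5.96, 7.31, 8.20, 9.04 and 9.37 CPM in WT and 12.005, 12.8, 14.1, 14.5 and 17.2 CPM in Akita mice on ethanol vehicle, and at 6.73, 6.76, 7.18, 7.21 and 7.40 CPM and 9.997, 11.1, 14.2, 19.3 and 19.4 CPM on MitoGamide. No Akita value reached down to a WT value on either treatment. On water it was at 2.61, 6.24, 6.47, 8.66 and 9.48 CPM in WT and 5.40, 9.11, 12.3, 18.8 and 19.1 CPM in Akita mice, and on MitoQ at 4.15, 5.35, 5.35, 5.62 and 7.01 CPM and 6.75, 7.89, 8.17, 12.1 and 16.05 CPM. The log2 fold change of Fbp2 over all treatments was 0.94 ± 0.13, adjusted p = 7.32e-07 in edgeR's test. The 12 skeletal muscle markers were near 0, with a summed level of 0.512 to 6.02 CPM (median 1.45) in WT and 0.549 to 3.60 CPM (median 1.65) in Akita mice, and Myh4 and Tnnc2 at 0 in every library. Fbp1 and Fbp2 lie close together on chr13 (Fbp2 at chr13:62836877-62858422, minus strand, GRCm38).

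The last step was not called. G6pc, the glucose 6-phosphatase that releases free glucose, ranged from 272 to 778 CPM in WT mice (median 445) and from 185 to 959 CPM in Akita mice (median 313), a log2 fold change of −0.27 ± 0.15, adjusted p = 0.204. Pyruvate carboxylase, Pcx, which feeds pyruvate into the pathway, gave −0.06 ± 0.11, adjusted p = 0.751. The glucose 6-phosphate transporter Slc37a4 gave 0.23 ± 0.10, adjusted p = 0.107 and the ubiquitous phosphatase G6pc3 −0.09 ± 0.09, adjusted p = 0.503, so that 4 of 8 gluconeogenic members were called. A missed threshold does not show that these levels were equal. Of the genes listed as phosphoglucomutases, Pgm2 was called higher (0.49 ± 0.09, adjusted p = 6.58e-05 by edgeR). Pgm1, which links the pathway to glycogen, was not called (−0.04 ± 0.08). It made up 88.8% (81.5 to 93.8%) of the level of both per kilobase in WT mice.

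**Figure D2:**
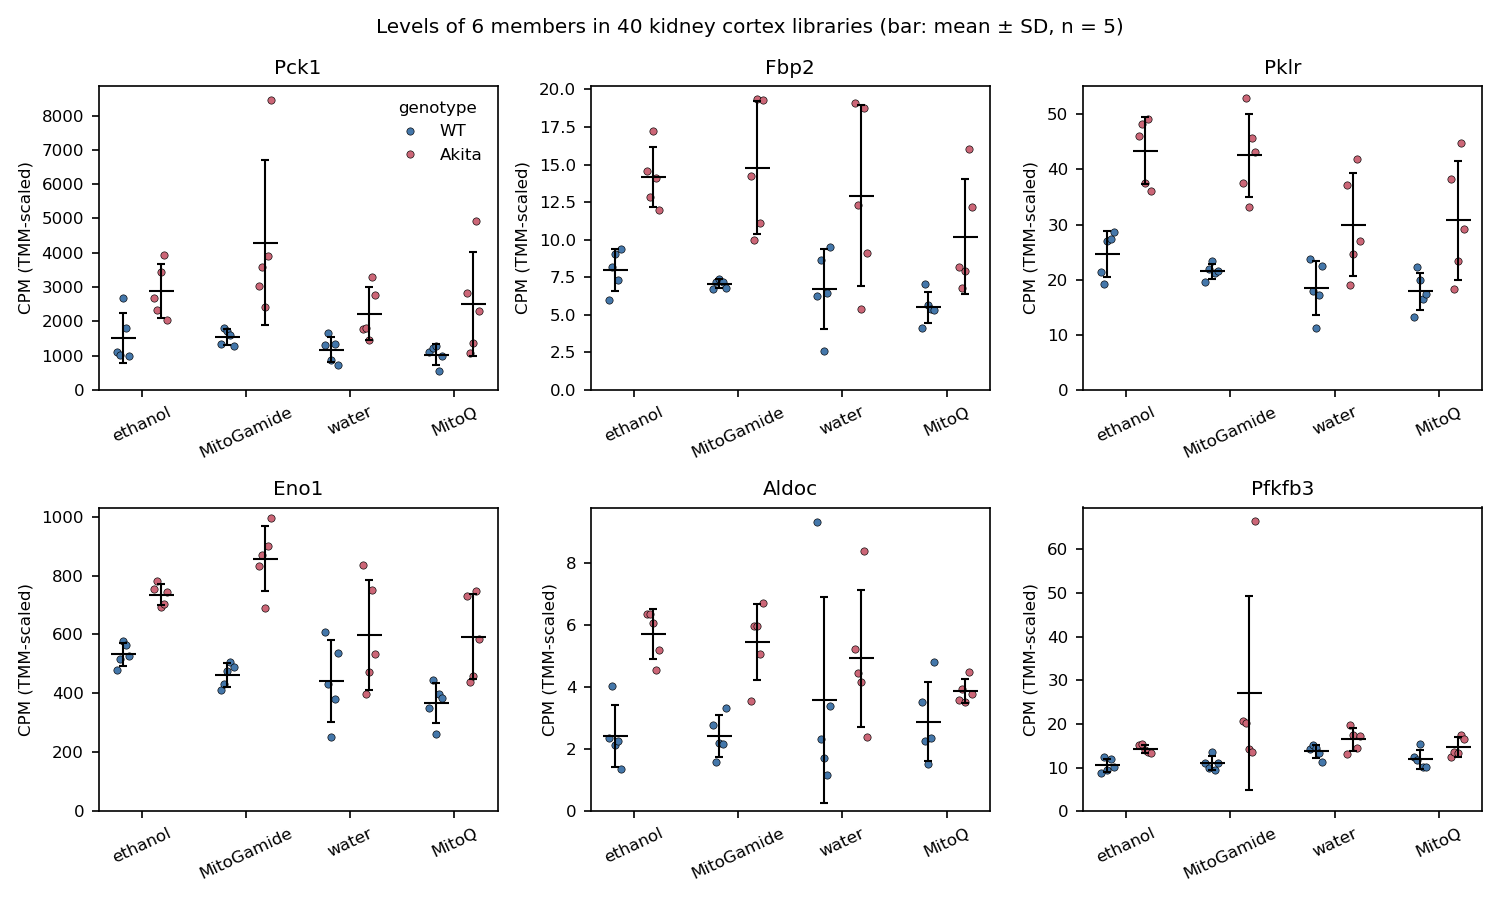
Level of 6 members (CPM, TMM-scaled) in each of 40 libraries by treatment, WT in blue and Akita in red, with the mean ± SD of 5 mice as bars. Eno1 and Pklr separate the genotypes on ethanol vehicle and on MitoGamide and overlap on water and MitoQ, and the single Pfkfb3 value of 66.5 CPM and Pck1 value of 8469 CPM belong to the same Akita mouse on MitoGamide.

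The upstream sequences of Pck1, Pklr and Fbp2 are shown because these 3 members were called both with the libraries on ethanol vehicle or MitoGamide and with those on water or MitoQ. They hold letters of the 4 motifs searched, the cyclic AMP response element (CRE), the carbohydrate response element (ChoRE), the E-box and the core of the hypoxia response element, which lies within the E-box. The sequences are from RefSeq (GRCm38.p6), read 5′ to 3′ on the gene's strand from up to 250 bases before an annotated start, and stop before the first exon base. Capitals mark a CRE (TNACGTCA) in Pck1 at −93 to −86, a ChoRE (here CACGNG and its reverse complement, 5 bases apart) in Pklr at −170 to −154 and an E-box (CACGTG) in Fbp2 at −42 to −37, counted from the RefSeq start. The Pck1 window is chr2:173152823-173153047 on the plus strand, the Pklr window is chr3:89136373-89136571 on the plus strand, before the second of 2 annotated starts and intronic to the longer transcript, and the Fbp2 window is chr13:62858423-62858650 on the minus strand.
Pck1: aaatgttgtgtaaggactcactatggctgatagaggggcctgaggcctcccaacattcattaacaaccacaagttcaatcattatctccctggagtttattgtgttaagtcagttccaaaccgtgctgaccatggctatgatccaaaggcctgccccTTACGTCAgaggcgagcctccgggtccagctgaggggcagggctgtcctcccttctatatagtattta
Pklr: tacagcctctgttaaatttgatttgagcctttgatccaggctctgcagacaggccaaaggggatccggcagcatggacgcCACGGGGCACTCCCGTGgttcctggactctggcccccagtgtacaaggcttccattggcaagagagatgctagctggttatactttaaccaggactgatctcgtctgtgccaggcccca
Fbp2: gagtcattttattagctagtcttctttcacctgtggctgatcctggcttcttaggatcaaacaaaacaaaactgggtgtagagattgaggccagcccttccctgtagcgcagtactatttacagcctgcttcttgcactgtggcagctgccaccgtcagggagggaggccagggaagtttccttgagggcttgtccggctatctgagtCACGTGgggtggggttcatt

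The motifs were searched on both strands in all 250 bases before each RefSeq start, including bases that another transcript has as exon, and all 36 members had at least 1 such window, 57 in all. The CRE letters were found in 2 of these 57 windows, those of Pck1 and Ldha, and in 2.52% of all 32851 windows. The E-box letters were found in 7 of the 57 windows, 1 each of 7 members (Fbp2, G6pc3, Ldha, Pcx, Pfkfb2, Pfkfb3 and Pfkm), and in 6.02% of all windows. The core of the hypoxia response element, ACGTG, which every E-box of this form contains, was found in 19 of the 57 windows, of 15 members, in Pkm solely past the first annotated exon base, and in 16.6% of all windows. The ChoRE letters were found in 13 of all windows, 0.0396%, and among the members in Pklr alone. A match describes the letters in the window and is not a measured binding site.

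Within each treatment alone (5 Akita against 5 WT mice) the members were called on ethanol vehicle and on MitoGamide and not on water or MitoQ. On ethanol vehicle 13 of 35 members were called higher and none lower, where 16.4% of 17747 genes were called, 8.18% as higher. On MitoGamide 18 of 34 were called higher and none lower, where 14.3% of 16674 genes were called, 7.71% as higher. Of 10 proximal tubule markers 4 were called lower on each treatment. Called higher were 2 of 5 principal cell markers on ethanol vehicle and 4 on MitoGamide. On each, 3 of 4 podocyte, 2 of 4 distal convoluted tubule and 1 of 5 fibroblast markers were higher. Of 5 endothelial markers 1 was lower on ethanol vehicle and 2 were higher on MitoGamide. The part of these in the member calls was not tested. With counts scaled by TMM within the 10 libraries of each comparison, the groups did not overlap for 9 members on ethanol vehicle and 16 on MitoGamide, all higher in Akita mice, against 6.19% and 6.80% of all genes. On the levels printed here, scaled over all 40 libraries, these were 9 and 14 members, since Gpi1 and Fbp1 then overlapped on MitoGamide. With all 40 libraries in 1 fit of 8 group means 2 members were called on ethanol vehicle, among 844 genes called. Of the 13 calls on ethanol vehicle 10 remained in each of 10 leave-one-out fits, while Pck1 remained in 5 and Pck2 and Pfkfb1 in 4. Of the 18 calls on MitoGamide 11 remained in each of 10 such fits, while Fbp1 remained in 6, Gapdh in 5, Pck2, Pfkl and Pfkfb3 in 4, Ldhb in 3 and Gpi1 in 2. On water no member was called, with 4 at an unadjusted p under 0.05 (7.56% of all genes) and 0 called by DESeq2 among 354 genes, and 0.552% of 18304 genes called by edgeR. On MitoQ no member was called, with 8 at an unadjusted p under 0.05 (9.06% of all genes) and 3 called by DESeq2 among 415 genes, and 0.557% of 18143 genes called by edgeR.

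The errors differed between treatments. The median SE of the members' log2 fold changes was 0.10 on ethanol vehicle, 0.12 on MitoGamide, 0.27 on water and 0.20 on MitoQ. For Pklr the log2 fold change was 0.83 ± 0.12 on ethanol vehicle, 1.01 ± 0.12 on MitoGamide, 0.70 ± 0.25 on water and 0.79 ± 0.23 on MitoQ. For Fbp2 it was 0.83 ± 0.13, 1.10 ± 0.18, 0.96 ± 0.39 and 0.89 ± 0.24 in the same order, and for Pck1 0.95 ± 0.27, 1.50 ± 0.29, 0.92 ± 0.30 and 1.28 ± 0.38. The log2 fold change of these 3 genes was above 0 on every treatment, with wider errors on water and MitoQ. For Aldoc it was 1.25 ± 0.23 and 1.18 ± 0.22 on ethanol vehicle and MitoGamide and 0.47 ± 0.51 and 0.35 ± 0.26 on water and MitoQ.

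These 4 comparisons share no library. Of the 34 members tested in all 4, 16 had a log2 fold change above 0 each time (47.1%), against 20.1% of 16406 genes, and they were Hk1, Pfkl, Aldoc, Gapdh, Pgam2, Eno1, Pkm, Pklr, Ldhb, Pfkfb3, Pfkfb4, Pck1, Fbp1, Fbp2, Slc37a4 and Pgm2. Hkdc1, Ldha and G6pc were below 0 each time, 8.82% of the members against 19.9% of all genes. Whether the genotype difference itself differed between ethanol and water vehicle was tested in 1 fit over 20 libraries, where neither a member nor any other gene was called, 2 members and 4.25% of all genes had an unadjusted p under 0.05, and DESeq2 called 0 members among 2 genes.

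**Figure D3:**
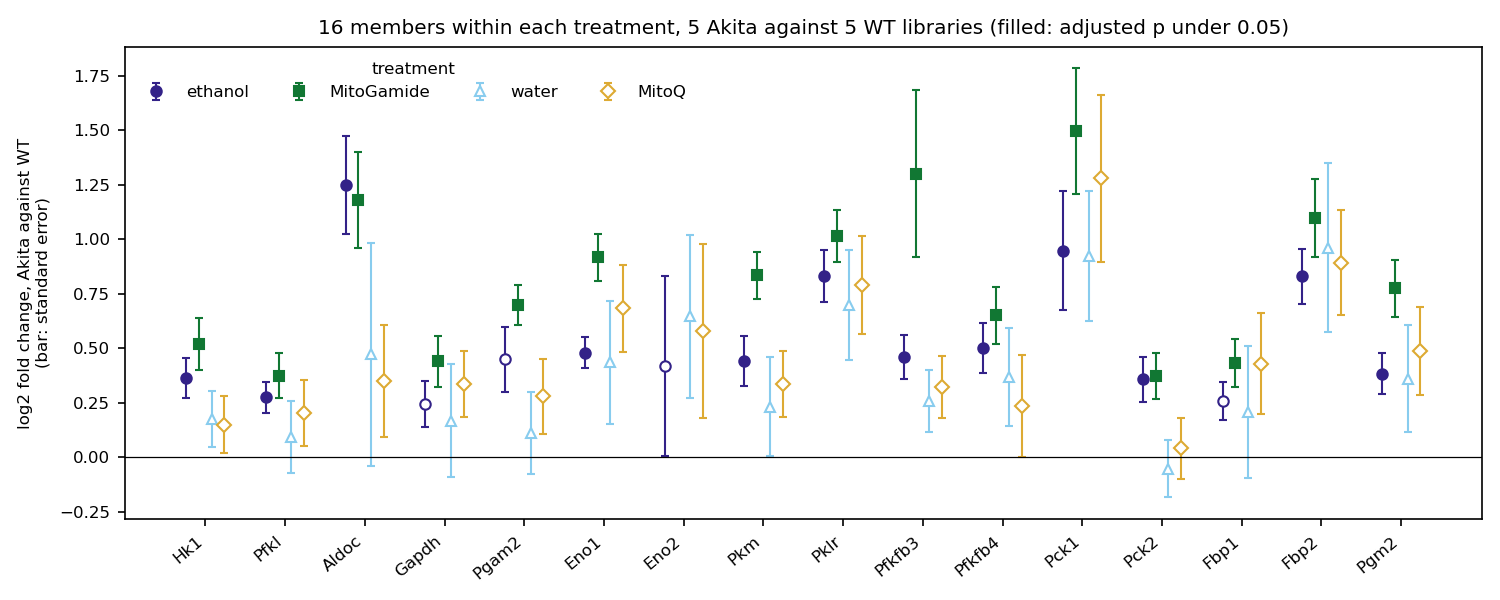
Log2 fold change, Akita against WT mice, of the 16 members called over all treatments, within each treatment (5 against 5 libraries). Bars are standard errors, filled points have an adjusted p under 0.05, and Eno2 on MitoGamide was under the count minimum and has no point. For Pck1 the 4 points lie between 0.92 and 1.50, and for Pck2 the point on water lies at −0.05.

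On MitoGamide 3 further members were called that the fit over all treatments did not call. Aldoa gave 0.41 ± 0.09, adjusted p = 0.00977, Gpi1 0.24 ± 0.07, adjusted p = 0.0475 and Ldhb 0.30 ± 0.08, adjusted p = 0.033 by edgeR. Aldoa was at 397, 425, 432, 437 and 474 CPM in WT and 502, 546, 577, 589 and 601 CPM in Akita mice, without overlap. Gpi1 was at 249, 258, 259, 259 and 277 CPM and 274, 293, 299, 307 and 324 CPM, so that the genotypes overlapped. Ldhb, at 544, 582, 607, 609.8 and 636 CPM and 675, 697, 702, 711 and 802 CPM, did not overlap. On ethanol vehicle Pfkfb1 was called (0.76 ± 0.23, adjusted p = 0.0387) as a low transcript, at 0.483, 0.512, 0.520, 0.670 and 0.674 CPM in WT and 0.699, 0.847, 0.911, 1.13 and 1.18 CPM in Akita mice, and it was not called with DESeq2. In the MitoGamide groups the receptor gene level did not overlap between the genotypes either, at 859 to 1468 CPM in WT and 449 to 801 CPM in Akita mice, and with it as a covariate no member was called and 91 genes were, so genotype and receptor gene level cannot be told apart in these groups. The mitochondrial share did not overlap either, at 24.6 to 27.8% in WT and 28.0 to 35.4% in Akita mice on MitoGamide, and its part in these calls was not tested. On ethanol vehicle that share was 20.1 to 22.6% in WT and 21.6 to 28.7% in Akita mice, with overlap. On ethanol vehicle the receptor gene level overlapped (749 to 1239 and 752 to 1061 CPM), and with the covariate 10 members were called higher and 1 lower, among 2491 genes called.

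No member was called under either compound against its own vehicle. With MitoGamide in Akita mice none of 35 members was called, with 6 at an unadjusted p under 0.05 (20.9% of all genes) and 0 called by DESeq2 among 1022 genes, while 1.26% of 17051 genes were called by edgeR. Among the members the largest log2 fold changes were Pfkfb3 (0.90 ± 0.37, adjusted p = 0.193) and Pck1 (0.57 ± 0.31, adjusted p = 0.306). Akita MitoGamide replicate 5 was the highest library for both, and without it the log2 fold changes were 0.28 ± 0.12 and 0.19 ± 0.20 (adjusted p = 0.182 and 0.599 by edgeR). The Pfkfb3 values on MitoGamide, 13.7, 14.3, 20.3, 20.6 and 66.5 CPM, overlapped those on ethanol vehicle. Pgm2 was the member whose groups did not overlap, at 9.51, 9.75, 10.7, 11.1 and 11.1 CPM on ethanol vehicle and 11.3, 11.3, 11.5, 13.6 and 18.1 CPM on MitoGamide, against 4.60% of all genes higher in this way, and its adjusted p was 0.166 by edgeR.

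With MitoGamide in WT mice none of 34 members was called (3 at an unadjusted p under 0.05, against 10.6% of all genes, and 0 by DESeq2 among 73 genes), where edgeR called 0 of 17395 genes, 0%. The test of whether the MitoGamide effect differed between Akita and WT mice called 0 members and 0 of 17256 genes by edgeR. Of the members 6 had an unadjusted p under 0.05 (8.32% of all genes), and DESeq2 called 0 members and no other gene. Eno1 had the smallest p of these, a difference in log2 fold change of 0.43 ± 0.12, adjusted p = 0.543, with 0.23 ± 0.10 in Akita and −0.21 ± 0.08 in WT mice. Pkm showed the same order, 0.27 ± 0.10 in Akita and −0.11 ± 0.12 in WT mice, with an adjusted p of 0.593 by edgeR for the difference.

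With MitoQ none of 34 members was called in Akita mice and none of 35 in WT mice, with 0 at an unadjusted p under 0.05 and 0 by DESeq2 in both, where edgeR called 0% of 18496 and 0% of 17881 genes and 1.96% and 3.22% had an unadjusted p under 0.05. The test of whether the MitoQ effect differed between Akita and WT mice called 0 members and 0 of 18225 genes by edgeR. Of the members 0 had an unadjusted p under 0.05 (1.14% of all genes), and DESeq2 called 0 members and no other gene. Members' log2 fold changes ran from −0.51 to 0.20 in Akita and from −0.42 to 0.32 in WT mice, with median SEs of 0.22 and 0.24. For MitoGamide they ran from −0.28 to 0.90 in Akita and from −0.28 to 0.30 in WT mice. The compounds were given in different vehicles, and the dose of MitoQ is not given in the labels, so no comparison between them was made.

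**Figure D4:**
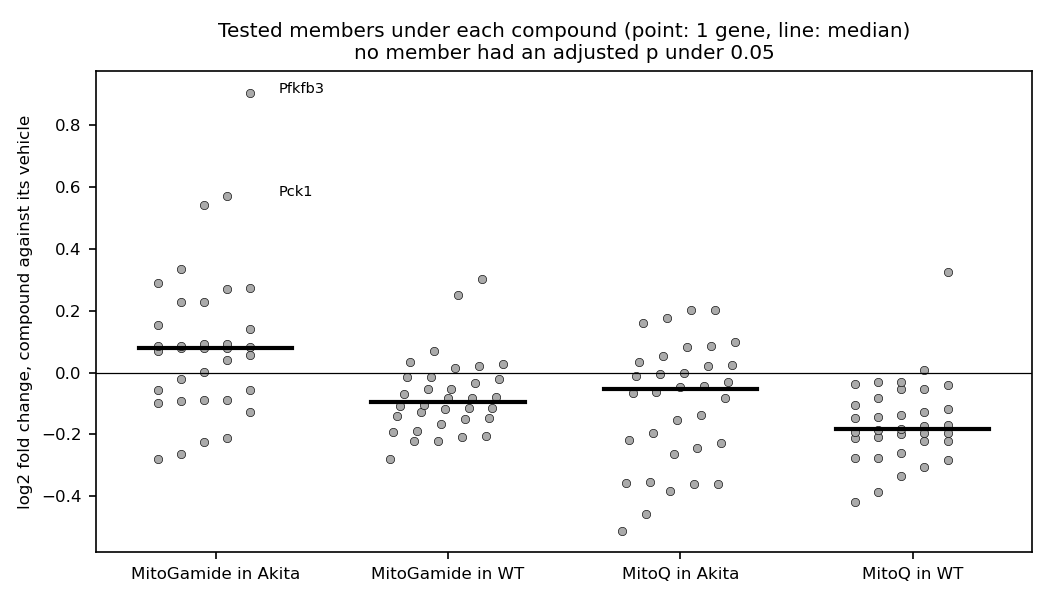
Log2 fold change of each tested member under a compound against its own vehicle, with 1 point per gene and a line at the median. None had an adjusted p under 0.05, and the labelled points, Pfkfb3 at 0.90 and Pck1 at 0.57 with MitoGamide in Akita mice, include 1 library with a high value.

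The vehicles themselves were compared within each genotype. In Akita mice 2 of 34 members were called, both lower on ethanol than on water vehicle, where 12.7% of 17928 genes were called and 9.07% were called lower. Eno2 was at 0.516, 0.583, 0.636, 0.800 and 0.911 CPM on ethanol and 1.12, 1.59, 1.71, 1.72 and 1.74 CPM on water, and Eno3 at 1.27, 1.52, 1.62, 2.22 and 2.41 CPM and 3.01, 3.30, 3.31, 4.49 and 4.91 CPM, with no overlap in either gene. Of all genes 5.78% did not overlap and were lower on ethanol. Most members lay the other way without a call, since 25 of 34 log2 fold changes were above 0 (48.4% of all genes) and 15 had an unadjusted p under 0.05 (39.7% of all genes). Pgm1 did not overlap and was higher on ethanol, as were 4.86% of all genes, at 64.96, 64.97, 65.1, 65.6 and 71.9 CPM on ethanol and 30.7, 42.2, 49.6, 58.01 and 59.6 CPM on water, and it was not called (0.48 ± 0.16, adjusted p = 0.0611 by edgeR). The log2 fold changes were −1.14 ± 0.24, adjusted p = 0.0296 and −1.02 ± 0.22, adjusted p = 0.0296 by edgeR. DESeq2 called 7 members, 5 of them higher and 2 lower on ethanol vehicle, among 4264 genes called. Both are low transcripts, and each remained called in 3 of 10 leave-one-out fits and was not called without TMM scaling. Without Akita water replicate 1, 15 members were called higher and 2 lower, among 6496 genes called, and without its replicate 4, 6 and 2, among 6120. Without Akita ethanol replicate 1, 2, 3 or 5, or Akita water replicate 3 or 5, no member and only 1 or 2 genes were called. Without Akita water replicate 2, 0 members and 132 genes were called. With a replicate block no gene was called, so the share of 12.7% rests on single libraries and settings. In WT mice none of 35 was called, with 7 at an unadjusted p under 0.05 (27.4% of all genes) and 0 by DESeq2 among 724 genes, where edgeR called 0% of 18092 genes, and without WT water replicate 5, 1 member was called higher and 4 lower, among 5216 genes called. The receptor gene level was 752 to 1061 CPM in Akita mice on ethanol and 1062 to 2016 CPM on water. The mitochondrial share was 21.6 to 28.7% on ethanol and 24.2 to 43.1% on water, and the proximal tubule marker sum had a median of 13513 CPM on ethanol and 10396 CPM on water, with none of its 10 markers called. Of the other lists, 1 distal convoluted tubule and 1 thick ascending limb marker were called higher on ethanol, and 1 distal convoluted tubule and 1 podocyte marker lower. The part of these in the enzyme values was not tested.

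Neighbouring steps of the pathway were read in the same fit. Of 39 further genes of glucose, pyruvate and glycogen metabolism 35 were tested over all treatments, and 10 were called higher and 4 lower in Akita mice, where 11.0% of all genes were called higher and 11.8% lower. Of the pyruvate dehydrogenase kinases, which hold pyruvate back from oxidation, Pdk4 (1.05 ± 0.35), Pdk1 (0.75 ± 0.12) and Pdk2 (0.53 ± 0.08) were called higher and Pdk3 lower (−0.53 ± 0.14). Ldhd, the mitochondrial dehydrogenase of D-lactate, the product of methylglyoxal detoxification by the glyoxalases, had the smallest adjusted p of the list and was lower (−1.24 ± 0.11, adjusted p = 5.6e-12 in edgeR's test). The glycogen synthases went opposite ways, Gys1 higher (0.45 ± 0.06) and Gys2 lower (−0.43 ± 0.10). Also called were Pgm5 (0.52 ± 0.15), Gpd1 (0.35 ± 0.08), Got1 (0.33 ± 0.08), Pygb (0.25 ± 0.07) and Got2 (0.19 ± 0.06), all higher, and Pgm3 (−0.31 ± 0.06), lower. Among the 10 called higher, 1 gene is counted but not reported here.

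Of 22 genes for transcription factors and receptors that act on this pathway, all tested, 8 were called higher and 1 lower in that fit, against the same 11.0% and 11.8% of all genes. Cebpb (0.58 ± 0.16), Foxo3 (0.58 ± 0.13), Foxo1 (0.19 ± 0.05) and the coactivator Ppargc1a (0.26 ± 0.06), which drive gluconeogenic genes in liver, were higher. Txnip (0.51 ± 0.19), a classic glucose-responsive gene, Mlxip (0.19 ± 0.07), a glucose-sensing factor, Hif1a (0.32 ± 0.07), the hypoxia factor that acts on glycolytic genes, and Irs1 (0.17 ± 0.05), an insulin receptor substrate, were higher too. The parathyroid hormone receptor Pth1r was lower (−0.28 ± 0.11, adjusted p = 0.0482). Mlxipl, the factor that binds the ChoRE, gave −0.24 ± 0.18, adjusted p = 0.363 by edgeR and was not called.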

How the data were processed

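Total RNA of renal cortex from 40 individual mice was depleted of ribosomal RNA and sequenced as directional single-read libraries. The authors trimmed reads with Skewer, mapped them to GENCODE mouse release 25 transcripts with kallisto 0.46.1 and summed transcripts per gene in R 4.0.2, and the deposited table holds the resulting estimated counts as whole numbers, neither filtered nor scaled. Gene positions and transcript lengths were taken from GENCODE M21 (GRCm38), where 99.5% of the 55401 identifiers were found, and upstream sequences from RefSeq (GRCm38.p6).

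In R 4.3.3, the estimated counts as deposited were tested with edgeR 4.0.16 (TMM scaling, quasi-likelihood test, mean of at least 10 counts over the libraries of a fit, Benjamini-Hochberg adjustment over all tested genes, called under 0.05). Of 14 fits, 1 held all 40 libraries with treatment as a term, 10 compared 2 groups of 5 and 3 tested a difference of differences over 20 libraries. DESeq2, the tool of the study, was run here in version 1.42.0 as an alternative. Fold changes are log2 with the standard error from the F statistic. Levels are CPM scaled by TMM over all 40 libraries, except the receptor gene level, which is scaled by library totals alone. Levels of different genes were compared per kilobase of the longest coding transcript. The scripts were tested on simulated data.

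Members and lists were chosen with earlier results of these data known. Named members are those called in at least 1 fit or the main kidney form of their step, and of the other lists the genes called over all treatments. Exceptions are named where they occur, and 1 gene of the other lists is counted but not reported here. Each p-value sets a difference against the spread between animals that the terms of its fit leave. In the fit over all treatments this spread includes any difference of the genotype effect between treatments. Alternatives were other tools, scalings and filters, 1 fit over 8 group means, a replicate block, addition of pseudogene copies and leaving out each library.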

Additional observations from a re-analysis of the deposited data

Results flagged for a closer look

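In the 168 sets of 5 libraries formed by 21 named members and 8 groups, 8 held a library whose gap to its nearest neighbour took up more of the range than Dixon's 95% limit allows, against 8.4 expected, since chance alone marks about 1 set in 20. Akita MitoGamide replicate 5 gave 3 of these. Its Pck1 level was 8469 CPM, where the other 4 libraries of the group lay between 2423 and 3914 CPM, its Pfkfb3 level was 66.5 CPM (others 13.7 to 20.6 CPM) and its Ldhb level was 802 CPM (others 675 to 711 CPM). Akita MitoGamide replicate 2 gave a Pgam2 level of 40.4 CPM (others 32.7 to 33.7 CPM) and a Pck2 level of 9.72 CPM (others 11.7 to 12.3 CPM). WT water replicate 1 had an Aldoc level of 9.32 CPM (others 1.17 to 3.39 CPM). For Eno2, WT ethanol replicate 5 stood at 1.26 CPM (others 0.240 to 0.415 CPM) and Akita water replicate 4 at 1.12 CPM (others 1.59 to 1.74 CPM). In the 3 tests of a difference between effects no member was called.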

How the results depend on the processing

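Over all treatments the count of 16 called members (4045 genes called) was 14 to 18 when 1 library was left out. It was 11 without TMM scaling (2618 genes) or without a filter (3607 genes). DESeq2 called 17 (16 higher, 1 lower, 4345 genes), and the fit of 8 group means 16 (15 higher, 1 lower, 4052 genes). With libraries on ethanol vehicle or MitoGamide only the count was 24 (23 higher, 1 lower, 5386 genes). With those on water or MitoQ only it was 3 (785 genes), and Pck2 changed sign (−0.0068). On ethanol vehicle the count of 13 (2910 genes called) was 10 to 14 with 1 library left out. It was 9 without TMM (8 higher, 1 lower, 2274 genes). With all 40 libraries in 1 fit with 8 group means it was 2 (844 genes). On MitoGamide the count was 18 among 2386 genes called. It was 11 among 1248 genes without WT MitoGamide replicate 2, and 0 among 91 genes with the receptor gene covariate. Without Akita MitoGamide replicate 5 it was 20. On water the count was 0 in every leave-one-out fit. It was 1 in the fit of 8 group means (547 genes called) and 1 with the receptor gene covariate (382 genes). On MitoQ it was 0 in every leave-one-out fit. It was 3 with DESeq2 (415 genes called) and 3 in the fit of 8 group means (308 genes), against 0 and 101 genes in the main fit. For ethanol against water vehicle in Akita mice the count of 2 (2283 genes called) was 7 with DESeq2 (5 higher, 2 lower, 4264 genes). It was 0 without TMM (185 genes) and 1 with at least 10 counts in every library (2104 genes). With 1 library left out it was 0 to 17 (17 among 6496 genes without Akita water replicate 1). In WT mice it was 1 in the fit of 8 group means (1567 genes). With 1 library left out it was 0 to 5 (5 among 5216 genes without WT water replicate 5). The counts for both compounds and for the 3 differences of effects stayed at 0 in every setting run. The cause of these changes was not tested. Leave-one-out counts printed here without a number of genes were not set against the share of all genes called. Of 1452 alternative values for 49 member results, 1270 kept direction and side of the threshold, 181 kept direction alone and 1 changed sign.

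The labels give the groups the same replicate numbers, but no comparison of 2 groups had all 5 same-numbered pairs correlated above 0.1, so the numbers were not treated as pairs. With the replicate block the count over all treatments was 16 (4026 genes called), on ethanol vehicle 13 (12 higher, 1 lower, 2566 genes) and on MitoGamide 14 (2282 genes). For ethanol against water and for MitoGamide in Akita mice it was 0, and no gene was called in either. Elsewhere it was 0 too, with 32 genes called for genotype on water, 48 on MitoQ and at most 2 in the other fits. In 1 to 2 of 5 pairs a library correlated best with its own number, and in none for MitoGamide in Akita mice.

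Dropping TMM shifts the log2 fold changes of a comparison by about the difference of the mean log2 factors. With factors computed over all 40 libraries this difference was 0.00 over all treatments and −0.02 for genotype on ethanol vehicle. It was −0.15 on water, −0.05 on MitoGamide, 0.23 on MitoQ and 0.14 for ethanol against water in Akita mice. The fits of 2 groups computed factors within their own 10 libraries, so their shifts can differ from these values. Of 24 named pseudogene copies 23 had under 1% of the counts of their parent gene. Depth was lowest for Hk3, Hk2, Eno2 and Pfkfb1, which averaged under 15 counts per library.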

Other observations

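Within the Akita mice on MitoGamide, replicate 5 had the highest level of the group for 16 of the 35 tested members and the lowest for 8. In the WT mice on water, replicate 3 was the lowest for 24 of 35, and in the WT mice on MitoQ, replicate 3, which had 49.2% mitochondrial counts, was the lowest for 22 of 35. In the Akita mice on water, replicate 1 was the highest for 19 of 35. The sum of 5 fat markers, a list without a gene above the count minimum over all 40 libraries, reached 21.7 CPM in WT water replicate 1 against a median of 0.627 CPM in that group.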
